A study of Homo sapiens with 6 samples.

Results

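The 58 genes described here encode the machinery that degrades messenger RNA: the CCR4-NOT and PAN2-PAN3 deadenylases, the decapping enzyme with its activators, the LSM1-7 ring, the XRN exonucleases, the exosome, the factors of nonsense-mediated decay, and proteins that bind AU-rich and stem-loop decay elements. They were chosen by gene symbol, with no measured value in the rule. All 58 were found among the 31853 genes of the deposited table, and all 58 passed the filter on low counts that left 18138 genes for testing. The RNA was that of Mon-Mac-6, a human cell line established from acute monocytic leukaemia, kept for 48 h with 500 nM WD6305 or with the vehicle DMSO. The series title calls WD6305 a PROTAC against METTL3, a molecule that couples its target protein to an E3 ubiquitin ligase; METTL3 is the enzyme that places most N6-methyladenosine (m6A) in messenger RNA. Each group had 3 poly(A) libraries, WD6305 1 to 3 and DMSO 1 to 3, all from the same line with no genetic change named, and the labels do not say that they came from separate cultures. The p-values therefore rest on the spread among these 6 libraries alone, and that spread may be technical.

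Messenger RNA decay usually begins with shortening of the poly(A) tail by CCR4-NOT and PAN2-PAN3, after which the LSM1-7 ring and its partners promote removal of the cap by DCP2 and XRN1 digests the body of the message from its start. The exosome, a barrel of inactive subunits joined to DIS3 or EXOSC10, digests RNA from the other end, and nonsense-mediated decay, set off by UPF1, removes messages with premature stop codons. The m6A reader YTHDF2 is known to bring CCR4-NOT to methylated messages, and ZFP36 proteins bring it to AU-rich messages such as those of cytokines, which is what the family is best known for in monocytes and macrophages.

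The sequence that ZFP36 proteins are known to bind holds the core UAUUUAU, written TATTTAT in DNA letters. It occurs in the 3' UTRs of their own messages, and the sites of the family are shown because ZFP36L2 had the smallest adjusted p of all members. Each line is read from GENCODE 29 transcripts (GRCh38), 5' to 3' on the strand of the message, with the core in capitals.
ZFP36 site at chr19:39409182-39409208, plus strand: atgggcccttTATTTATgacgacttta
ZFP36 site at chr19:39409222-39409248, plus strand: gattttatagTATTTATatatattggg
ZFP36L1 site at chr14:68788337-68788363, minus strand: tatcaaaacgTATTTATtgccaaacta
ZFP36L1 site at chr14:68788295-68788321, minus strand: attttgttcaTATTTATcgggatgaca
ZFP36L2 site at chr2:43223449-43223475, minus strand: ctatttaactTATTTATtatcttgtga
ZFP36L2 site at chr2:43223401-43223427, minus strand: gttcatactgTATTTATcaagtatgat
CNOT8 site at chr5:154876732-154876758, plus strand: ttgtaaatacTATTTATgtttttaatt
DCP2 site at chr5:113014983-113015009, plus strand: ggagaaattcTATTTATtaatgaaagt
The 3 ZFP36 family messages hold 3 such cores each in the 3' UTR of the chosen transcript, DCP2 also holds 3, and CNOT8 holds 1. CNOT8 and DCP2 are shown because both were higher with WD6305 under every alternative that was run.

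Library totals ran from 64525948 to 71155346 deposited counts, and the lowest member, ZFP36L1, still had 169, 240 and 146 counts with WD6305 and 353, 311 and 242 with DMSO. Values in each library are library-size-scaled counts (CPM) after TMM scaling of the deposited counts, and levels per length are the deposited FPKM. METTL3 RNA itself was 78.2, 75.97 and 79.7 CPM with WD6305, against 70.5, 64.95 and 66.4 CPM with DMSO, a log2 fold change of 0.21 with SE 0.05 (adjusted p = 0.0218). Unless another tool is named, adjusted p is Benjamini-Hochberg adjusted over all tested genes and comes from the quasi-likelihood test of edgeR, and a gene is called higher or lower where that p is under 0.05. The METTL3 call was lost without DMSO 2 or any 1 WD6305 library (adjusted p = 0.0501 to 0.0931). A degrader acts on protein, and no protein was measured. All 11 monocytic and granule markers had reads in every library, over a wide range of levels: LYZ was between 4967 and 5752 FPKM with WD6305 and between 2891 and 3139 FPKM with DMSO, and CSF1R, the lowest, between 1.68 and 2.27 FPKM with WD6305 and between 0.68 and 0.78 FPKM with DMSO. CD14 was between 7.38 and 8.39 FPKM with WD6305 and between 9.99 and 10.31 FPKM with DMSO, and MPO between 6.67 and 8.35 FPKM with WD6305 and between 9.40 and 10.14 FPKM with DMSO. Of the lymphoid and erythroid markers, CD3D, CD3E, CD3G, CD2, MS4A1, PAX5 and HBB had no row, while NKG7 was between 138 and 170 FPKM with WD6305 and between 156 and 184 FPKM with DMSO. Of 15 keratin and epithelial markers 14 had a row; their summed FPKM was 5.81, 68.3 and 67.9 in WD6305 1, 2 and 3, against 84.4, 79.5 and 7.98 in DMSO 1, 2 and 3. WD6305 1 and DMSO 3 thus stood apart from the other 4 libraries, with KRT5 at 0.01 and 0.03 FPKM. COL1A1, a fibroblast collagen, was at 33.5, 1.41 and 1.69 CPM with WD6305 and 1.29, 1.88 and 2.60 CPM with DMSO, high in WD6305 1. Counts below are therefore also given without these libraries. In bulk RNA, fewer cells of a type and less RNA per cell cannot be told apart.

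The decay machinery was expressed throughout and moved little, with calls in both directions. Of the 58 members, 7 were higher with WD6305 (CNOT6L, CNOT8, PAN3, DCP2, DIS3L, UPF3B and ZFP36L2) and 10 were lower (EDC4, LSM2, LSM4, LSM6, LSM7, EXOSC2, EXOSC5, EXOSC7, UPF1 and SMG5). That is 29.3% of the members, where 23.4% of all tested genes were called, and 12.1% and 17.2% by direction, where 12.2% of all tested genes were called higher and 11.2% lower. The called shares of the members lie near those of all genes on the higher side and somewhat above them on the lower side. The gap on the lower side depends on the background. In a fit of 13402 coding genes, described below, 11 members were lower, where 15.3% of those genes were. The median log2 fold change over the members was -0.05, with 25 values above 0 and 33 below. The median size was 0.12 on the log2 scale, against 0.26 over all tested genes. Median levels with DMSO also differed, at 9.10 FPKM for members and 2.04 FPKM for all tested genes. Sizes in genes of like level were not compared. The widest fold was 1.58, for ZFP36L1, which was not called. The groups did not overlap for 12 members that were higher and 17 that were lower, where 20.4% and 20.3% of all tested genes did the same.

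The member counts depended on single libraries. Without DMSO 3 they were 12 higher and 12 lower, where 13.6% and 11% of all genes were called. Without WD6305 1 they were 4 and 5, where 8.65% and 7.68% of all genes were called, without WD6305 2 they were 3 and 8 (8.51% and 8.15% of all genes), and without WD6305 3 they were 5 and 5 (7.64% and 6.92%). Without DMSO 1 the counts were 4 and 7 (9.28% and 8.17% of all genes), and without DMSO 2 they were 4 and 6 (8.72% and 7.81%). The calls over all genes thus also became fewer in each of these 5 fits. In the 4 libraries left after WD6305 1 and DMSO 3 were both removed, 9 members were higher and 7 lower, where 12.4% and 9.89% of all genes were called. DESeq2 called 10 members higher and 12 lower, where 17.3% and 17% of its genes were called and 34.2% in all. The calls on CNOT8, DCP2, ZFP36L2, LSM2, LSM4, EXOSC2 and EXOSC5 were kept in all 19 alternatives run.

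**Figure D1:**
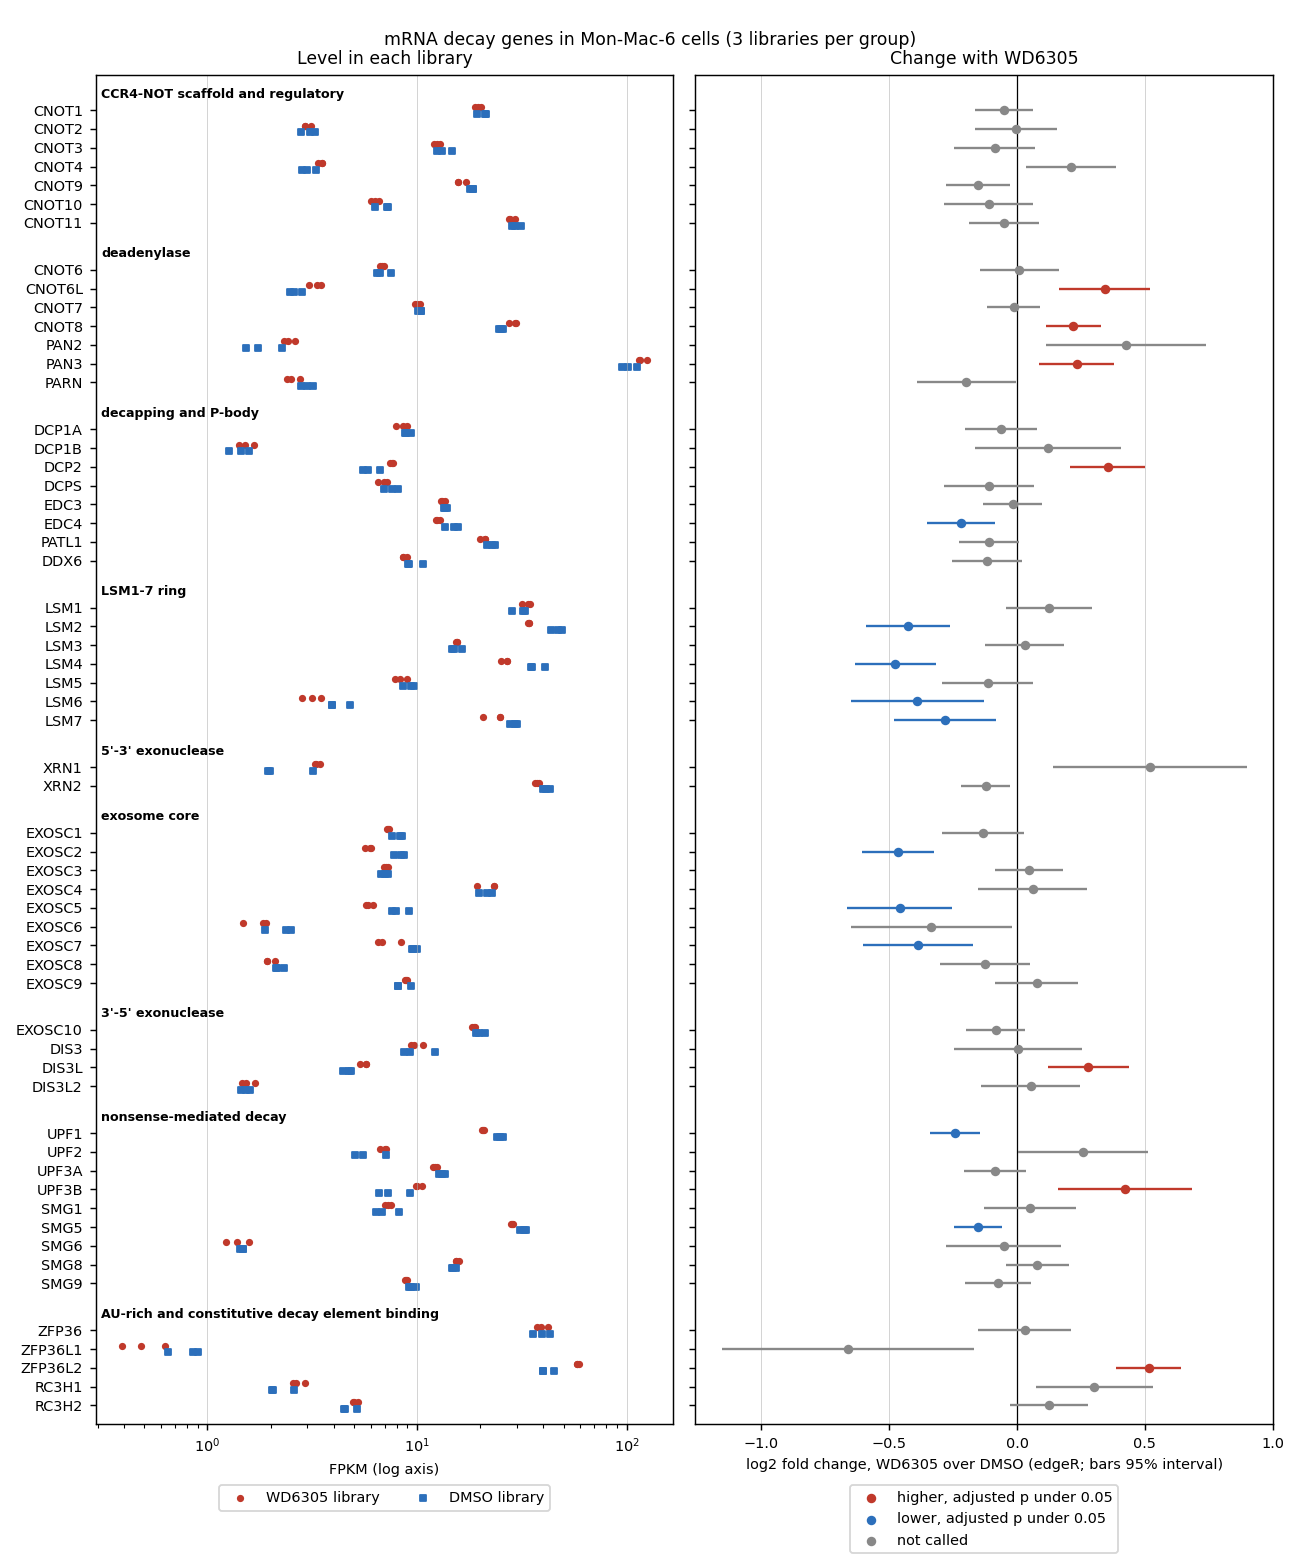
The left panel gives the FPKM of each member in each library on a log axis (red circles WD6305, blue squares DMSO) and the right panel its log2 fold change, WD6305 over DMSO, with the 95% interval, coloured by call. The ring subunits LSM2, LSM4, LSM6 and LSM7 and the exosome subunits EXOSC2, EXOSC5 and EXOSC7 lie left of 0, and the called deadenylase genes lie right of 0.

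Levels per length spanned a wide range. The median member had 8.58 FPKM with WD6305 and 9.10 FPKM with DMSO, against a median of 2.04 FPKM over all tested genes with DMSO, and 57 of 58 members had at least 1 FPKM with DMSO. PAN3, the adaptor subunit that brings PAN2 to poly(A)-binding protein, was the highest, at a mean of 118.7 FPKM with WD6305 and 102.8 FPKM with DMSO, above 98.2% of tested genes. ZFP36L2 had 58.5 FPKM with WD6305 and 41.6 FPKM with DMSO, and ZFP36L1 was the lowest at 0.50 FPKM with WD6305 and 0.80 FPKM with DMSO.

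Among the 7 deadenylase genes 3 were higher and 0 lower, while none of the 7 scaffold and regulatory subunits of CCR4-NOT was called. Of all tested genes 12.2% were called higher and 11.2% lower, and no subgroup here or below was tested as a set. CCR4-NOT carries 2 catalytic seats, one filled by CNOT6 or CNOT6L and the other by CNOT7 or CNOT8, and in each pair one paralog was higher. CNOT6L was 33.3, 34.6 and 30.8 CPM with WD6305, against 24.6, 25.7 and 27.5 CPM with DMSO, a 1.27-fold rise (log2 0.34, SE 0.08, adjusted p = 0.0135). Its paralog CNOT6 was 48.7, 47.4 and 47.1 CPM with WD6305, against 46.5, 44.8 and 51.05 CPM with DMSO. The CNOT6L groups lay apart, and those of CNOT6 overlapped, at a log2 fold change of 0.01 with a 95% interval of -0.15 to 0.17. The CNOT6L call was lost when WD6305 2, DMSO 1 or DMSO 2 was left out, in limma on FPKM, and with the offsets for GC and length described below, at adjusted p = 0.0501 to 0.208 (edgeR or limma).

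CNOT8 (chr5:154857553-154876792 in GRCh38, plus strand) was the other higher paralog. It was 125, 122 and 116 CPM with WD6305, against 105, 102 and 105 CPM with DMSO, 1.17-fold higher (log2 0.22, SE 0.05, adjusted p = 0.0103). CNOT7, which shares its seat, was 122, 114 and 118 CPM with WD6305, against 121, 117 and 118 CPM with DMSO. The CNOT7 groups overlapped at a log2 fold change of -0.01 (95% interval -0.12 to 0.09), and CNOT7 was called lower only with the GC and length offsets.

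PAN3 was 851, 781 and 784 CPM with WD6305, against 639, 679 and 738 CPM with DMSO, 1.18-fold higher (adjusted p = 0.0292). All WD6305 libraries lay above all DMSO libraries, with DMSO 3 the nearest, and the call was lost in 11 of 19 alternatives, among them the removal of any 1 library other than DMSO 3. PAN2, the nuclease of that complex, was 20.4, 18.8 and 18.2 CPM with WD6305, against 11.98, 17.6 and 13.2 CPM with DMSO. DMSO 2 was the high DMSO library for PAN2, whose log2 fold change of 0.43 missed the threshold (adjusted p = 0.0556) and stood at 0.60 without DMSO 2 (adjusted p = 0.00841). Without DMSO 1 or DMSO 3 the PAN2 value was 0.31 and 0.37 (adjusted p = 0.164 and 0.124). PAN2 was called higher in 6 alternatives. PARN, a cap-stimulated poly(A) nuclease, was 41.8, 35.95 and 38.1 CPM with WD6305, against 48.00, 41.4 and 43.5 CPM with DMSO, which missed the threshold at a log2 fold change of -0.20 (adjusted p = 0.129).

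The scaffold CNOT1, on which the other subunits assemble, was 219, 224 and 235 CPM with WD6305, against 222, 240.5 and 240.5 CPM with DMSO. Its groups overlapped, and the 95% interval of its log2 fold change was -0.17 to 0.06. The other 6 scaffold and regulatory genes, CNOT2, CNOT3, CNOT10 and CNOT11 among them, ran from -0.15 for CNOT9, which binds silencing adaptors, to 0.21 for CNOT4, a ubiquitin ligase. Both of those had groups that did not overlap (adjusted p = 0.0770 and 0.0823), and both passed without DMSO 3, at log2 fold changes of -0.18 and 0.26 (adjusted p = 0.0464 and 0.0336). In the 4 libraries CNOT9 passed at -0.22 (adjusted p = 0.0149) and CNOT4 did not, at 0.25 (adjusted p = 0.0903). CNOT9 was called lower in 8 of 19 alternatives, while CNOT4 passed only without DMSO 3. Without DMSO 1 or DMSO 2 neither passed, at adjusted p = 0.191 and 0.18 for CNOT9 and 0.228 and 0.202 for CNOT4.

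DCP2 and EDC4 were called in opposite directions among the 8 decapping genes. DCP2 (chr5:112976702-113020123 in GRCh38, plus strand), the enzyme that cuts the cap, was 92.9, 92.01 and 90.2 CPM with WD6305, against 66.8, 70.1 and 78.2 CPM with DMSO, 1.28-fold higher (log2 0.35, SE 0.06, adjusted p = 0.00454). The WD6305 libraries lay close together above the DMSO libraries, of which DMSO 3 was the highest. With the offsets for GC and length, the DCP2 difference passed at a log2 fold change of 0.18 (adjusted p = 0.0152). EDC4, a scaffold that enhances DCP2, was 80.8, 83.6 and 81.8 CPM with WD6305, against 88.99, 102 and 95.6 CPM with DMSO, 1.16-fold lower (log2 -0.22, adjusted p = 0.0257). Its groups did not overlap, and the call was lost in 7 of 19 alternatives, at adjusted p = 0.0593 to 0.297. Among these were the removal of any 1 WD6305 library and the GC and length offsets (log2 -0.08, adjusted p = 0.297). The cofactors DCP1A and DCP1B, the scavenger enzyme DCPS, the enhancer EDC3, the activator PATL1 and the helicase DDX6 had log2 fold changes between -0.12 and 0.12 and did not pass. DDX6 was called lower only with the GC and length offsets.

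Of the 7 subunits of the LSM1-7 ring, which binds the shortened tail ahead of decapping, 4 were lower and 0 higher. The shares of all tested genes were 11.2% and 12.2%. LSM4 was 81.96, 81.5 and 77.3 CPM with WD6305, against 124, 106 and 105 CPM with DMSO, 1.39-fold lower (log2 -0.48, SE 0.07, adjusted p = 0.00166). LSM2 was 38.3, 38.5 and 38.9 CPM with WD6305, against 55.3, 52.6 and 47.5 CPM with DMSO, 1.34-fold lower (log2 -0.43, SE 0.07, adjusted p = 0.00326). In both genes every WD6305 library lay below every DMSO library by more than the spread within either group.

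LSM6 was 12.1, 14.8 and 13.5 CPM with WD6305, against 20.2, 16.5 and 16.2 CPM with DMSO (log2 -0.39, adjusted p = 0.0394), and LSM7 was 37.4, 44.8 and 44.97 CPM with WD6305, against 54.00, 52.1 and 48.4 CPM with DMSO (log2 -0.28, adjusted p = 0.0476). The groups of LSM6 and LSM7 did not overlap but came close, and each call was lost in 7 alternatives, at adjusted p = 0.0668 to 0.139. LSM3, LSM5 and LSM1 were not called, with log2 fold changes of 0.03, -0.11 and 0.12. LSM2 to LSM7 also form the nuclear ring of the spliceosomal U6 RNA, in which LSM8 takes the place of LSM1. LSM8, which is outside the 58, was 47.6, 45.2 and 48.4 CPM with WD6305, against 36.8, 32.5 and 41.2 CPM with DMSO, and was higher (log2 0.35, SE 0.09, adjusted p = 0.0224), a call lost in 7 alternatives. The lower calls of the ring were on subunits that both rings share, but the uncalled LSM3 and LSM5 are shared as well. Neither LSM1 nor LSM8 was called lower. Only these belong to a single ring, so no pattern by ring can be read from the calls.

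XRN1, the cytoplasmic exonuclease that finishes decapped messages, had the largest positive log2 fold change of the 58 and missed the threshold. It was 42.4, 41.6 and 44.4 CPM with WD6305, against 25.2, 24.6 and 39.6 CPM with DMSO (log2 0.52, SE 0.17, adjusted p = 0.0530). All WD6305 libraries were above all DMSO libraries, but DMSO 3 was 1.59-fold above the mean of DMSO 1 and 2. Without DMSO 3 the log2 fold change was 0.78 (adjusted p = 0.000272), and without DMSO 3 and WD6305 1 it was 0.79 (adjusted p = 0.000889), while without DMSO 1 or DMSO 2 it was 0.41 and 0.40 (adjusted p = 0.163 and 0.166). DESeq2 called it higher (adjusted p = 0.00176), as did 8 alternatives in all. XRN2, the nuclear counterpart that ends transcription, was 136, 138 and 134 CPM with WD6305, against 145, 148 and 152 CPM with DMSO. Its groups lay apart, but the log2 fold change of -0.12 missed the threshold (adjusted p = 0.0693), and it was called lower in 5 alternatives.

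**Figure D2:**
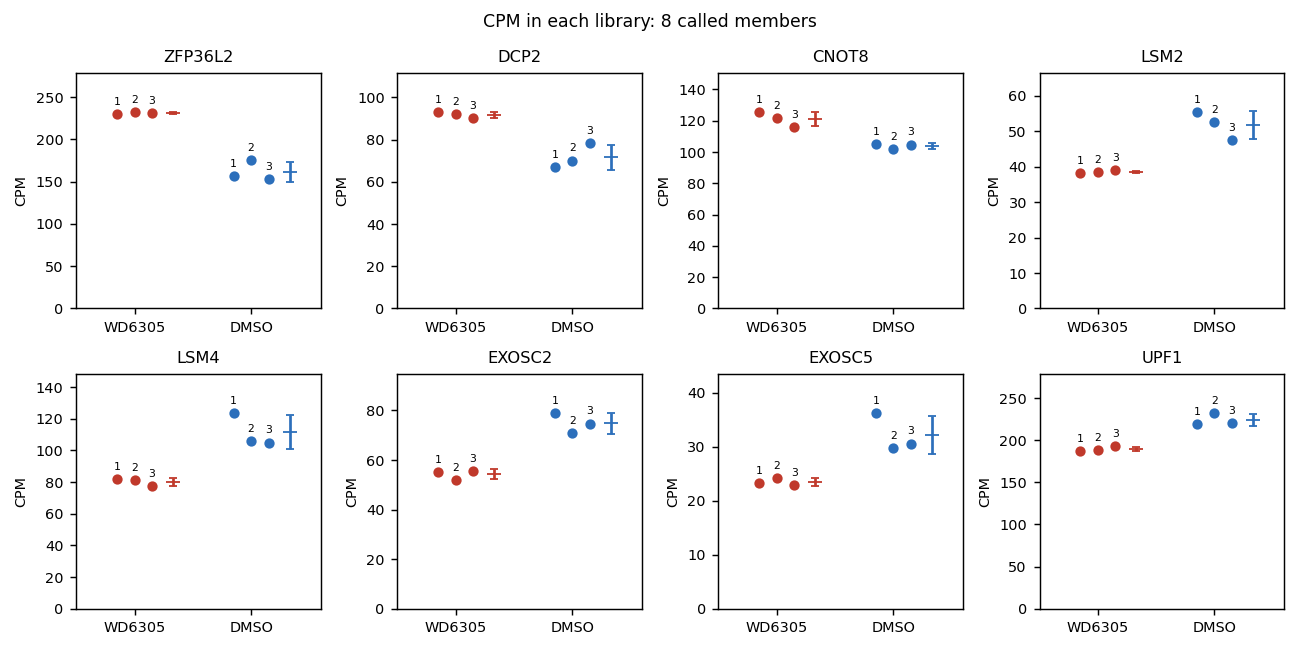
CPM of 8 called members in each library, with the library number above each point and the group mean and SD (n = 3) beside the points; the axis starts at 0. ZFP36L2, DCP2 and CNOT8 are higher in all WD6305 libraries, and LSM2, LSM4, EXOSC2, EXOSC5 and UPF1 are lower in all of them.

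In the 9-subunit exosome barrel 3 genes were lower and 0 higher, against 11.2% and 12.2% of all tested genes. EXOSC2, a cap subunit that binds RNA, was 55.3, 51.9 and 55.4 CPM with WD6305, against 79.1, 70.7 and 74.7 CPM with DMSO, 1.38-fold lower (log2 -0.47, SE 0.06, adjusted p = 0.00108). EXOSC5, a subunit of the barrel wall, was 23.2, 24.3 and 22.9 CPM with WD6305, against 36.3, 29.8 and 30.6 CPM with DMSO, 1.37-fold lower (log2 -0.46, SE 0.09, adjusted p = 0.00677). In both the highest WD6305 library lay well below the lowest DMSO library.

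EXOSC7, also of the wall, was 32.3, 39.5 and 31.1 CPM with WD6305, against 44.9, 44.1 and 45.6 CPM with DMSO, 1.31-fold lower (adjusted p = 0.0183). WD6305 2 was the library nearest to the DMSO libraries, and the call was lost without WD6305 1, WD6305 3 or DMSO 1 and in the 4 libraries, at adjusted p = 0.0515 to 0.0807. The remaining barrel genes, EXOSC1, EXOSC3, EXOSC4, EXOSC6, EXOSC8 and EXOSC9, did not pass and ran from a log2 fold change of -0.33 for EXOSC6 (adjusted p = 0.118) to 0.08 for EXOSC9. EXOSC9 overlaps CCNA2 on the other strand over 578 bases, and CCNA2 is expressed at 56.7 FPKM; EXOSC7 overlaps ZDHHC3 over 942 bases. Other opposite-strand overlaps include DIS3 with BORA (4030 bases, 10.4 FPKM), EXOSC3 with DCAF10 (31564 bases, 4.28 FPKM) and EDC3 with CLK3 (14857 bases, 3.55 FPKM). No source used here says whether the authors counted by strand, so reads of such neighbours may be mixed.

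Of the 4 nucleases that digest from the same end, in or beside the barrel, 1 was higher and 0 lower. The shares of all tested genes were 12.2% and 11.2%. DIS3L, the cytoplasmic catalytic subunit, was 33.3, 32.8 and 31.1 CPM with WD6305, against 27.5, 25.5 and 27.2 CPM with DMSO, 1.21-fold higher (log2 0.28, SE 0.07, adjusted p = 0.0204). Its groups lay apart, and the call was lost in 5 of 19 alternatives, at adjusted p = 0.0563 to 0.0794. DIS3, the nuclear catalytic subunit, was 123, 107 and 112 CPM with WD6305, against 100.1, 106 and 137 CPM with DMSO. DMSO 3 was the highest of all 6 libraries, the groups overlapped, and the 95% interval of the log2 fold change was -0.25 to 0.25.

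EXOSC10, the second nuclear nuclease, was 119.7, 120.4 and 117 CPM with WD6305, against 122, 134 and 123 CPM with DMSO (log2 -0.08, adjusted p = 0.285). DIS3L2, which digests uridylated RNA without the exosome, was 20.5, 17.6 and 18.5 CPM with WD6305, against 17.5, 19.1 and 17.98 CPM with DMSO (log2 0.05, adjusted p = 0.718). EXOSC10 groups lay narrowly apart and those of DIS3L2 overlapped, and neither passed.

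Nonsense-mediated decay held 1 higher and 2 lower calls among 9 genes, against 12.2% higher and 11.2% lower of all tested genes. UPF1, the helicase at the centre of the pathway, was 187, 189 and 193 CPM with WD6305, against 219, 233 and 221 CPM with DMSO, 1.18-fold lower (log2 -0.24, SE 0.04, adjusted p = 0.00396). The WD6305 libraries were tightly grouped below the DMSO libraries, and the call was lost only with the GC and length offsets (log2 -0.09, adjusted p = 0.136). SMG5, an adaptor bound by phosphorylated UPF1, was 160.2, 161 and 161 CPM with WD6305, against 174, 185 and 177 CPM with DMSO, 1.11-fold lower (log2 -0.15, adjusted p = 0.0278). That small difference was larger than the spread within groups and was lost in 7 alternatives, at adjusted p = 0.0510 to 0.578.

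UPF3B, which links UPF2 to exon junctions, was 28.7, 26.4 and 27.1 CPM with WD6305, against 17.6, 19.5 and 24.2 CPM with DMSO, 1.34-fold higher (log2 0.42, SE 0.12, adjusted p = 0.0285). DMSO 3 was again the highest DMSO library, and the call was lost in 8 alternatives, among them the removal of any 1 library other than DMSO 3. UPF2, the bridge between UPF1 and UPF3B, was 44.5, 41.8 and 44.3 CPM with WD6305, against 31.7, 34.1 and 43.4 CPM with DMSO. DMSO 3 lay among the WD6305 libraries, and the log2 fold change of 0.26 (adjusted p = 0.137) was 0.40 without DMSO 3 (adjusted p = 0.00462). Removing the highest DMSO library raises such a difference by itself. Without DMSO 1 or DMSO 2 the UPF2 value was 0.17 and 0.21 (adjusted p = 0.355 and 0.324). With the GC and length offsets it was 0.16 (adjusted p = 0.166). UPF3A, the paralog of UPF3B, was not called at -0.09.

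SMG1, the kinase that phosphorylates UPF1, was 195, 188 and 202 CPM with WD6305, against 170.1, 180.4 and 214 CPM with DMSO, with overlapping groups. The table lists 7 pseudogene copies of SMG1, the highest, SMG1P1, at 5.16 FPKM, so SMG1 counts are uncertain. SMG6, the endonuclease of the pathway, was 13.8, 17.6 and 15.7 CPM with WD6305, against 16.1, 16.6 and 16.2 CPM with DMSO, also overlapping. Neither of the SMG1 regulators SMG8 and SMG9 was called, at log2 fold changes of 0.08 and -0.07.

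**Figure D3:**
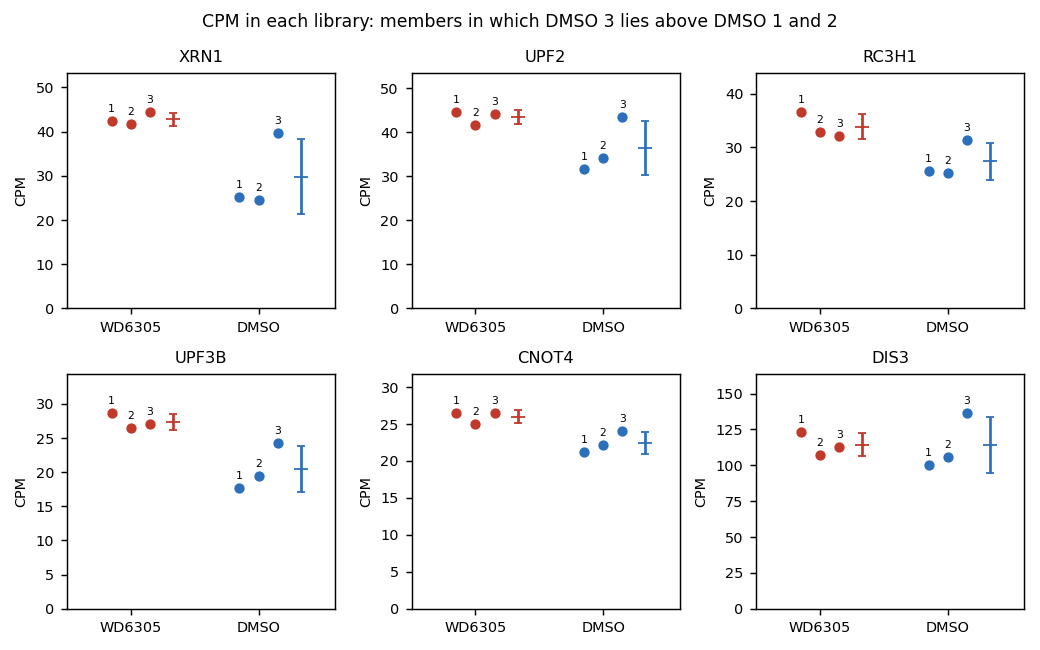
CPM of 6 members in each library, with the library number above each point and the group mean and SD (n = 3) beside the points; the axis starts at 0. In XRN1, UPF2, RC3H1, UPF3B, CNOT4 and DIS3 the third DMSO library lies above DMSO 1 and 2, by 1.59-fold over their mean for XRN1.

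Of the 5 element-binding genes 1 was higher and 0 lower, within the ZFP36 family whose own sites are printed above. The shares of all tested genes were 12.2% and 11.2%. ZFP36L2 (chr2:43222402-43226606 in GRCh38, minus strand) was 229, 232 and 231 CPM with WD6305, against 156, 176 and 153 CPM with DMSO, 1.43-fold higher (log2 0.51, SE 0.06, adjusted p = 0.000389), the smallest adjusted p among the members. ZFP36, which encodes tristetraprolin, was 79.1, 88.9 and 82.7 CPM with WD6305, against 82.8, 89.6 and 72.98 CPM with DMSO, and its groups overlapped (log2 0.03, 95% interval -0.15 to 0.21). ZFP36L1 was 2.63, 3.49 and 2.19 CPM with WD6305, against 4.97, 4.65 and 3.52 CPM with DMSO. Its WD6305 libraries lay below all DMSO libraries, WD6305 2 and DMSO 3 nearly touching, and the log2 fold change of -0.66 missed the threshold (SE 0.22, adjusted p = 0.0583). ZFP36L1 was called lower in 9 alternatives, among them DESeq2 (adjusted p = 0.0226) and the fit without DMSO 3 (log2 -0.80, adjusted p = 0.0336). Without DMSO 1 or DMSO 2 it was not called, at log2 fold changes of -0.56 and -0.62 (adjusted p = 0.168 and 0.153).

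Roquin-1, encoded by RC3H1, and roquin-2, encoded by RC3H2, bind stem-loop decay elements. RC3H1 was 36.5, 32.9 and 32.2 CPM with WD6305, against 25.6, 25.3 and 31.4 CPM with DMSO (log2 0.30, adjusted p = 0.0615). RC3H2 was 64.6, 60.9 and 62.4 CPM with WD6305, against 55.5, 54.7 and 62.1 CPM with DMSO (log2 0.13, adjusted p = 0.222). DMSO 3 was the highest DMSO library for both, and without it both were higher, at log2 fold changes of 0.41 and 0.19 (adjusted p = 0.00726 and 0.0487). Removing the highest DMSO library raises such a difference by itself. Without DMSO 1 or DMSO 2 neither passed, at adjusted p = 0.178 and 0.191 for RC3H1 and 0.43 and 0.46 for RC3H2. With the GC and length offsets described below neither passed, at log2 fold changes of 0.15 and -0.04 (adjusted p = 0.134 and 0.592). In the 4 libraries RC3H1 passed at 0.35 (adjusted p = 0.0165) and RC3H2 did not, at 0.16 (adjusted p = 0.0845).

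Ratios within a library compare paralogs or partners without regard to library scaling. Over 11 pairs, 8 had log2 CPM ratios whose groups did not overlap, each at exact permutation p = 0.1, two-sided, the smallest that 3 against 3 libraries allow (0.14 after Benjamini-Hochberg adjustment over the 11), so none could pass. The ratio of CNOT6L to CNOT6 was -0.54 ± 0.08 with WD6305 and -0.87 ± 0.06 with DMSO on the log2 scale (SD, n = 3 each), and that of CNOT8 to CNOT7 was 0.04 ± 0.06 with WD6305 and -0.19 ± 0.02 with DMSO. Per length CNOT8 was the more abundant with both, at a mean of 28.8 FPKM, against 10.1 FPKM for CNOT7, with WD6305 and 25.2 FPKM, against 10.3 FPKM, with DMSO. The ratio of UPF3B to UPF3A was -1.46 ± 0.03 with WD6305 and -1.98 ± 0.30 with DMSO, and that of XRN1 to XRN2 was -1.67 ± 0.07 with WD6305 and -2.35 ± 0.36 with DMSO. ZFP36L2 to ZFP36L1 had the widest difference, at 6.41 ± 0.34 with WD6305 and 5.22 ± 0.23 with DMSO. PAN3 to PAN2, DCP1B to DCP1A and DIS3L to DIS3 overlapped between groups (exact permutation p = 0.4, 0.2 and 0.2).

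**Figure D4:**
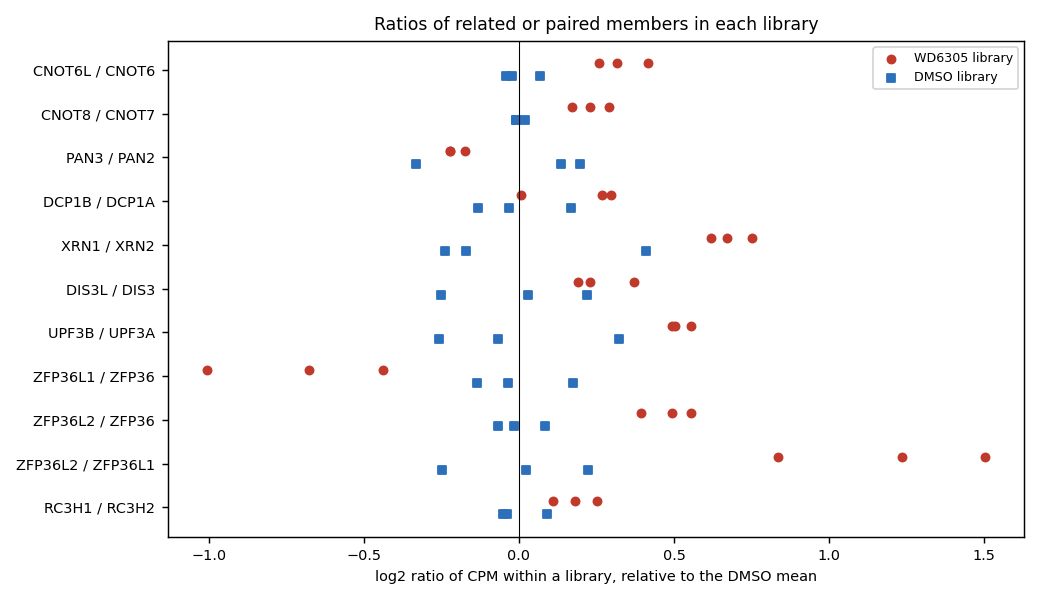
Log2 ratio of CPM between 2 members within each library, shown relative to the mean of the DMSO libraries (red circles WD6305, blue squares DMSO). ZFP36L2 over ZFP36L1 lies farthest right of 0 in the WD6305 libraries, and CNOT6L over CNOT6 and CNOT8 over CNOT7 lie right of all DMSO libraries.

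Beyond the 58, genes that work with them were taken from 8 lists chosen with earlier results of these data known; 152 were tested, 22 were higher (14.5%) and 32 lower (21.1%), against the 12.2% and 11.2% of all genes. The median log2 fold change over the 152 was -0.12, where that of all tested genes was 0.00. Without DMSO 3 there were 22 higher and 38 lower, where 13.6% and 11% of all genes were called. In the 4 libraries there were 20 and 31, where 12.4% and 9.89% of all genes were called. Without WD6305 1 there were 14 higher and 23 lower, and without WD6305 3 there were 14 and 21. The called shares of all genes, 8.65% and 7.68% without WD6305 1 and 7.64% and 6.92% without WD6305 3, were also lower than with all 6 libraries. Of the 54 called genes, 33 kept their call whichever library was left out and 21 lost it at least once; among those named below these are ANGEL2, BTG2, LSM12, SKIC2, TUT1, NCBP1, GSPT1, SRSF3, NAT9, GAS5, TIA1, ELAVL1, RIDA and VEGFA. The 8 lists ran in different directions.

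Of 21 deadenylation adaptors and partners 3 were higher and 4 lower, against 12.2% and 11.2% of all tested genes. PABPC4, a poly(A)-binding protein, fell by 0.41 on the log2 scale, AGO2, the core of the microRNA complex, by 0.35, TNKS1BP1, a CCR4-NOT associate, by 0.37, and TOB2, an adaptor of CNOT7 and CNOT8, by 0.31. BTG2, another such adaptor, rose by 0.44, and NANOS1, a translational repressor that recruits CCR4-NOT, rose by 1.56 from a low level, 2.80, 2.92 and 3.80 CPM with WD6305 against 0.873, 1.36 and 1.00 CPM with DMSO. ANGEL2, named after its values were seen, rose by 0.37. Among 16 decapping partners 6 were higher and 1 lower, against the same 12.2% and 11.2%. The Nudix hydrolases NUDT3 and NUDT16 rose by 0.60 and 0.45, PNRC1 by 0.49, CPEB4, a binder of cytoplasmic polyadenylation elements, by 0.58, and LSM12 fell by 0.30.

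Of 17 exosome cofactors 2 were higher and 1 lower, with 14 log2 fold changes below 0. The shares of all tested genes were 12.2% higher and 11.2% lower. The higher genes were RBM7 (0.40) and ZCCHC8 (0.33), which belong together to the nuclear exosome targeting complex, and SKIC2 (SKIV2L in the table), the helicase of the cytoplasmic SKI complex, was lower (-0.21). Among 9 terminal transferases tested 3 were higher and 0 lower, against the same 12.2% and 11.2%. TUT7, which uridylates deadenylated messages, was 45.8, 44.6 and 44.7 CPM with WD6305, against 22.8, 24.4 and 33.00 CPM with DMSO (log2 0.75, adjusted p = 0.00345), with DMSO 3 the highest DMSO library. TUT1 was 20.8, 11.2 and 19.5 CPM with WD6305, against 12.3, 9.91 and 9.66 CPM with DMSO (adjusted p = 0.0462), and WD6305 2 overlapped the DMSO range. TENT5A, a poly(A) polymerase, rose by 0.34 on the log2 scale.

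Exon junction and nonsense-mediated decay partners were lower in 7 of 18 and higher in 0, with a median of -0.17 and 16 of 18 below 0. Of all tested genes 11.2% were lower and 12.2% higher. Those named by the smallest adjusted p were ETF1 (-0.37), a release factor, RNPS1 (-0.35), a junction protein, DHX34 (-0.39), a helicase that acts with UPF1, EIF4A3 (-0.27), the core junction helicase, NCBP1 (-0.23), of the nuclear cap-binding complex, and GSPT1 (-0.24), the release factor that pairs with ETF1. Messages reported as nonsense-mediated decay targets were lower in 8 of 29 and higher in 1, against the same 11.2% and 12.2%, with a median of -0.17. ATF4 (-0.54), SNHG16 (-0.40), HNRNPL (-0.36), SRSF3 (-0.22) and NAT9 (-0.28) were among the lower genes, and GAS5, a noncoding host of small nucleolar RNAs, was the 1 higher gene (0.20). These are levels of the whole gene, and the isoforms that carry premature stops were not separated.

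Other element-binding and endonucleolytic proteins were higher in 5 and lower in 5 of 20, against 12.2% and 11.2% of all tested genes. ZC3H12C, of the regnase family of endonucleases, was 31.1, 29.04 and 30.9 CPM with WD6305, against 15.6, 16.8 and 17.1 CPM with DMSO, 1.84-fold higher, and its relative ZC3H12D rose by 0.55 on the log2 scale. YTHDF2, the m6A reader, was 161, 153 and 159 CPM with WD6305, against 125, 132 and 125 CPM with DMSO (log2 0.31, adjusted p = 0.00154), with the groups apart. HNRNPD, which encodes the AU-rich binder AUF1, had a log2 fold change of -0.46, KHSRP, another AU-rich binder, -0.35, and SAMD4B -0.33. TIA1 was also higher (0.26) and ELAVL1 and RIDA also lower (-0.21 and -0.56); these were named after their values were seen.

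Messages known to be bound by ZFP36 proteins were lower in 6 and higher in 2 of 22, against 11.2% and 12.2% of all tested genes. Their median log2 fold change was -0.35, and 17 of 22 were below 0, where 9059 of all 18138 tested genes were. Some uncalled messages near the floor count in these values. Mean FPKM with WD6305 and DMSO was 0.053 and 0.227 for CCL20 (log2 -1.84) and 0.033 and 0.10 for CXCL3 (log2 -1.62). For IL1A it was 0.227 and 0.223 (log2 0.00). TNF, an inflammatory cytokine and a known ZFP36 target, was 11.1, 14.2 and 13.6 CPM with WD6305, against 31.1, 30.7 and 24.1 CPM with DMSO (log2 -1.14, adjusted p = 0.000434). IER3, an early response gene, had a log2 fold change of -0.93, PIM1, a kinase, -0.66, IL1B, a cytokine, -0.55, and MYC, a transcription factor that drives growth, -0.37, and all were lower. TNFAIP3, an inhibitor of NF-kappaB signalling, was higher (0.76). NFKBIA, higher at 0.36, and VEGFA, lower at -0.30, were named after their values were seen.

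Features of the transcripts are given as descriptions, with no test. Over the 58, the log2 fold change had Pearson's r of -0.38 with the GC content of the chosen GENCODE 29 coding transcript and 0.40 with its length, against -0.13 and 0.03 over 13402 tested coding genes; these are descriptions across genes measured in the same libraries, not independent replicates. The 7 higher members had a median GC content of 43.9% and a median length of 3647 bases, the 10 lower members 58.5% and 1974 bases. The gap between DMSO 3 and the mean of DMSO 1 and 2 moved with the same features, at r of -0.61 with GC and 0.50 with length over the members, and -0.27 and 0.18 over all coding genes. Offsets that remove each library's trend in GC and length, an alternative chosen after seeing the data, left 8 members higher and 12 lower, where 18.4% and 16.5% of 13402 genes were called and 34.9% in all. The same 13402 genes without the offsets gave 10 members higher and 11 lower, where 16.8% and 15.3% of these genes were called, and there XRN1, PAN2, RC3H1 and ZFP36L1 passed already. Against that fit the offsets added XRN2, LSM5, DDX6 and CNOT7 to the lower members, and CNOT6L, RC3H1, EDC4, UPF1 and SMG5 lost their calls.

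**Figure D5:**
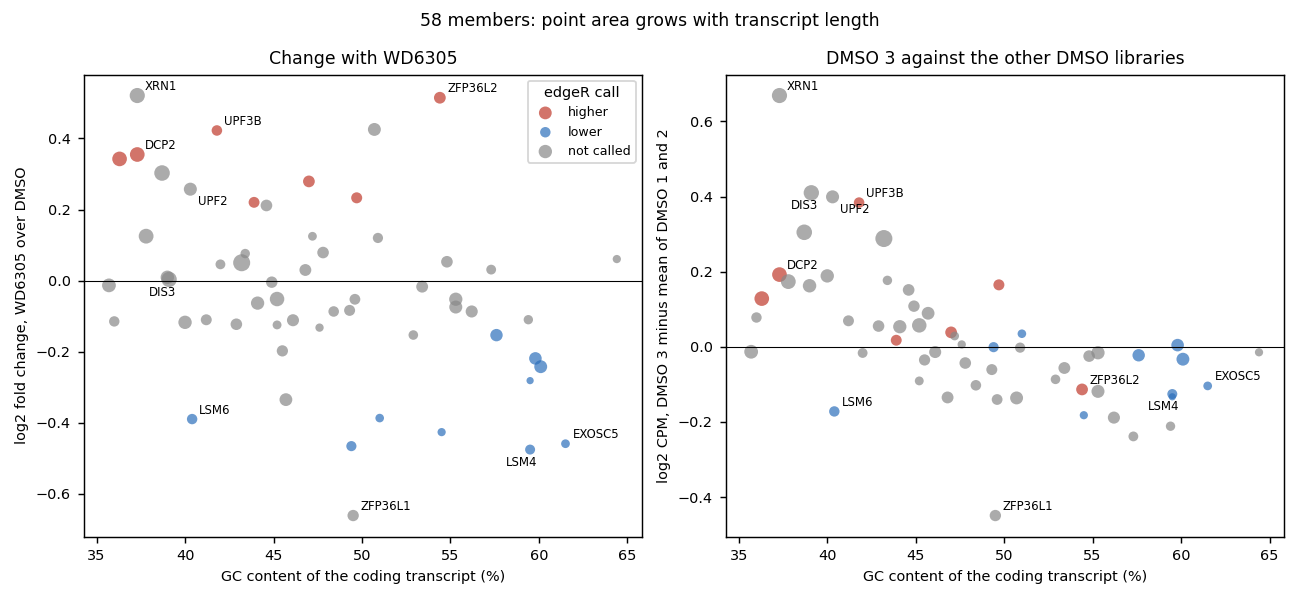
GC content of the coding transcript of each of the 58 members against its log2 fold change, WD6305 over DMSO (left), and against the log2 CPM of DMSO 3 minus the mean of DMSO 1 and 2 (right), coloured by call, with point area growing with transcript length. Pearson's r is -0.38 on the left and -0.61 on the right.

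The TATTTAT core, searched on the message strand of the 3' UTR, was present in 4 of 7 higher, 1 of 10 lower and 17 of 41 uncalled members. Over all tested coding genes it was present in 31.6% of higher, 25.4% of lower and 30.1% of uncalled genes. The lower member was UPF1 (chr19:18867924-18867950, plus strand), whose 27-base window is given on the message strand.
UPF1 site: cagggactctTATTTATtcccattgct
The median 3' UTR of these transcripts was 1353 bases in higher members, 724 in lower members and 1077 in uncalled members. The chosen transcript of PAN3, a higher member, has a 3' UTR of only 17 bases, and its other transcripts were not searched. The pentamer GGACT, the commonest core of m6A sites, had a median density of 0.5 per kilobase of transcript in higher members and 1.1 in both lower and uncalled members, against 0.9, 1.0 and 0.9 over all coding genes. Its density had r of -0.11 with the log2 fold change over the members, and -0.01 over all coding genes. Methylation was not measured, and a match is not a methylated site.

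RefSeq promoter windows on GRCh38.p14 were matched for 50 of 58 members and searched on both strands. Only 1 window per gene was taken, and some lie away from the gene start in the deposited table. The SMG5 window is chr1:156291467-156291766, while that table starts the minus-strand gene at 156282825. The E-box CACGTG, bound by MYC and MAX, was found in 1 of 9 lower (EXOSC5), 0 of 6 higher and 4 of 35 uncalled members. It was in 10.03% of 10778 promoters of tested genes. The GC box GGGCGG was found in 9 of 9 lower, 5 of 6 higher and 24 of 35 uncalled members, against 68.71% of all. AAGATGGC, a core of YY1, lay in 2 of 9 lower members (LSM7 and EXOSC2), 3 of 35 uncalled members and 5.23% of all promoters. GCGCATGC, part of the NRF1 motif, lay in 2 of 9 lower members (LSM7 and SMG5), 3 of 35 uncalled members and 5.38% of all. CCGGAAGT, an ETS core, lay in 1 of 9 lower members (EDC4), 4 of 35 uncalled members and 8.6% of all. TGACGTCA, the cyclic AMP response element, lay in 0 of 9 lower members, 1 of 35 uncalled members and 3.13% of all. None of these last 4 motifs lay in a higher member. A match is not a bound site.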

How the data were processed

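RNA of 3 WD6305 and 3 DMSO libraries was analysed, grouped by the treatment in the labels. The authors deposited 1 table that gives, for each Ensembl gene and library, an estimated count and its FPKM, with 0 further sample columns. The tools named in the submitters' processing notes are fastp, HISAT2, StringTie and edgeR, with the GRCh38 build; no source used here gives versions, settings or use of strand. Estimated counts as deposited by the authors are whole numbers that pile up at multiples of 4 among low genes (1071 to 1176 genes at 4, against 553 to 636 at 3), so they may overstate the number of fragments, and all errors come from the spread between libraries. The authors' FPKM values are scaled for transcript length and library size.

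Counts were tested with edgeR 4.0.16 in R 4.3.3 (filterByExpr, TMM, quasi-likelihood, Benjamini-Hochberg over 18138 genes, threshold 0.05). DESeq2 1.42.0 and limma 3.58.1 on log2(FPKM + 1) and log2(FPKM + 0.1) were alternatives; others were scaling, filters, counts divided by 4, each library left out, 4 libraries, and GC and length offsets. The fits were also run on simulated counts with known changes, which checks the method and does not test the single calls given here. The members and lists were chosen with earlier results of these data known. Values in every library are given for called members and for catalytic or defining ones, and up to 6 called genes with the smallest adjusted p per related list are named; some genes that met a list's count are not reported here by name. The GENCODE 29 transcript with the longest coding sequence gave GC, length and 3' UTR.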

Additional observations from a re-analysis of the deposited data

How the results depend on the processing

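Over 19 alternatives, 17 planned and 2 added after seeing the data, the log2 fold changes of single members stayed on their side of the threshold in 989 values, dropped below it in 63 and newly passed it in 49; 0 called values changed sign, and 44 values uncalled both ways did. Of 17 called members 7 were never lost, and of 41 uncalled members 12 passed somewhere and 29 nowhere. Limma on log2(FPKM + 1) and on log2(FPKM + 0.1) left 4 members higher in each, against 7, and 12 and 11 lower, against 10; over all genes they called 1844 and 1815 higher and 2176 and 2154 lower, against 2218 and 2031. The cause was not tested. Leaving out 1 library at a time, which lowers the number of samples in the fit, gave 3 to 12 members higher and 5 to 12 lower, 14 to 22 related genes higher and 21 to 38 lower, and 1446 to 2563 of all genes higher and 1310 to 2077 lower. The lowest counts over all genes came without WD6305 3, the lowest member counts without WD6305 2 (3 higher) and without WD6305 1 or WD6305 3 (5 lower), and the highest member counts without DMSO 3. Library sizes alone gave 6 members higher and 13 lower, and upper quartile factors gave the same counts; over all genes they called 1998 and 1914 higher and 2334 and 2473 lower.

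The labels do not say whether libraries that share a replicate number are paired. Deviations from the group means of such libraries had r of -0.181, 0.0782 and -0.146. The highest r, 0.265, was between WD6305 1 and DMSO 3. With 3 libraries per group these r values are tied to each other and cannot decide the pairing. With the replicate number as a block 6 members were higher and 8 lower, and 1736 and 1468 of all genes. SEs of the member log2 fold changes ran from 0.04 to 0.22, the widest for ZFP36L1, the lowest member, which has no value under the filter of a mean FPKM of at least 1.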

Other observations

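PAN3, the most abundant member, lies on chromosome 13 (chr13:28138506-28295335, GRCh38) between FLT3, a receptor tyrosine kinase of leukaemia cells, and FLT1. Levels along this stretch differed widely. FLT3 had a mean of 536 FPKM with WD6305 and 514 FPKM with DMSO and was not called (edgeR adjusted p = 0.294), GTF3A, a transcription factor of RNA polymerase III, had 217 FPKM with WD6305 and 205 FPKM with DMSO (edgeR adjusted p = 0.186), and FLT1 had 0.767 FPKM with WD6305 and 0.60 FPKM with DMSO (edgeR adjusted p = 0.0975). MTIF3, a mitochondrial initiation factor, had 58.2 FPKM with WD6305 and 37.3 FPKM with DMSO and was higher (log2 fold change 0.67, SE 0.05, adjusted p = 0.000108, edgeR). POMP, a proteasome assembly factor, had 17.7 FPKM with WD6305 and 23.4 FPKM with DMSO and was lower (log2 fold change -0.38, SE 0.08, adjusted p = 0.00827, edgeR). These neighbours were chosen after the level of PAN3 was seen.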
